A study of Mus musculus with 8 samples.

Results

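Messenger RNA of 10 members of the TNF superfamily was followed in mouse lung neutrophils during bacterial pneumonia. The 5 ligands were Tnf, Tnfsf9, Tnfsf10, Tnfsf13b and Tnfsf14, and the 5 receptors were Tnfrsf1a, Tnfrsf1b, Tnfrsf9, Fas and Cd40. Members were picked by gene symbol, through the RefSeq identifier that names each row of the expression table, and all 10 had 1 row among 24625 rows and 19832 distinct symbols. The samples were 4 of mice given Streptococcus pneumoniae (SP), a Gram-positive bacterium that is a common cause of pneumonia, and 4 of mice given phosphate-buffered saline (PBS). All 8 samples came from wild type mice aged 6 to 12 weeks per the labels, and the methods give a narrower age range. The methods name purchased adult C57BL/6J females and colonies generated, and say that the mice studied were matched for sex. Bacteria in suspension, or PBS alone, had been instilled intratracheally on the left side in a volume of 2.3 µl per g of mouse, and lungs were taken 24 h later. Neutrophils were pulled from digests of the lungs with beads coated for Ly6G, a protein on the surface of mouse neutrophils, and each sample was read on 1 Affymetrix Mouse Gene 1.1 ST array. The question asked of these genes was how pneumonia changed the signals that lung neutrophils can send and receive through this family.

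Ligands of the TNF superfamily are made as trimers on the cell membrane, and some are cut off and act at a distance. Their receptors cluster when a ligand binds and recruit adaptor proteins, either TRAF proteins, which lead to NF-κB and kinase signalling, or death domain proteins, which lead to caspase-8 and apoptosis. In neutrophils TNF primes the respiratory burst and adhesion, and death receptors such as Fas can shorten the life of the cell.

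Values are log2 expression as deposited, so that a difference of 1 is a 2-fold change, and differences are given as SP minus PBS. A gene was called where the adjusted p of limma, a linear model with a shared estimate of spread, was at most 0.05, and called at 2-fold where the difference was also at least 1 log2 unit. The 3 Y-linked genes measured, which female mice do not carry, lay between 4.33 and 4.90 on every array and serve as a measure of background. The labels do not give the sex of the mice. The labels do not say whether each sample came from 1 mouse, while a figure legend of the study describes each as from a mouse. The p-values measure the spread between these samples.

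The samples held RNA of cells other than neutrophils, and its amount moved with the groups. The mean of 9 neutrophil markers lay between 12.12 and 12.37 on PBS arrays and between 11.61 and 12.69 on SP arrays. Of these 9, 3 were lower in SP (Retnlg, Mmp8 and Mmp9) and none higher, the median difference was -0.30, and Ly6g itself had no matched row. All 7 epithelial markers were lower in SP, with a mean of 11.71 to 12.10 on PBS arrays and 10.02 to 10.87 on SP arrays, and 6 of 7 endothelial markers and 6 of 7 B cell markers were lower too. Of 8 monocyte and macrophage markers, 3 were higher in SP, and the mean of the list overlapped between the groups (7.97 to 8.87 in PBS and 8.06 to 9.50 in SP). Of 8 alveolar macrophage markers, 4 were lower and 1 was higher. Among the remaining lists, 1 of 7 dendritic cell markers was higher and 2 were lower, and 1 of 7 T cell markers was higher. Further, 2 of 5 eosinophil markers were higher and 2 of 6 fibroblast markers lower. Of all rows, 44.1% were called in either direction and 21.5% higher, so the small counts are near the share of all rows. Of 6 NK cell markers, 0 were called by limma and 0 had an unadjusted p under 0.05. The methods state that purity was examined only in samples with pneumonia, where nearly all cells on stained preparations were neutrophils. The few others mostly looked like alveolar macrophages. High Ly6G mRNA is reported there for every sample. The part of these cells in the results that follow was not tested, and in bulk samples fewer cells of a type and less RNA per cell cannot be told apart. SP replicate 3 and, less so, PBS replicate 2 stood apart from the other arrays of their groups, and values without them are given where they change a call or move a fold by over 1.5 times.

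Of the 10 members, 7 were higher in SP, namely Tnf, Tnfsf9, Tnfsf10, Tnfrsf1b, Tnfrsf9, Fas and Cd40, against 44.1% of all rows called in either direction and 21.5% called higher. Of these, 6 were called at 2-fold, all except Tnfsf10, against 6.37% of all rows. No member was lower at 2-fold (11.3% of all rows), and none was lower without that limit. Tnfsf13b, Tnfsf14 and Tnfrsf1a did not pass the test. The 4 SP values lay clear of the 4 PBS values for 7 members, which include Tnfsf14 but not Tnfsf10, against 49% of all rows. The median difference of the members was 2.12, and that of all rows 0.10. The members were chosen with earlier results of these data known, so these counts and this median are those of a selected set. Without PBS replicate 2 and SP replicate 3 together, 7 members were called, and leaving out any single array gave 6 or 7.

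**Figure D1:**
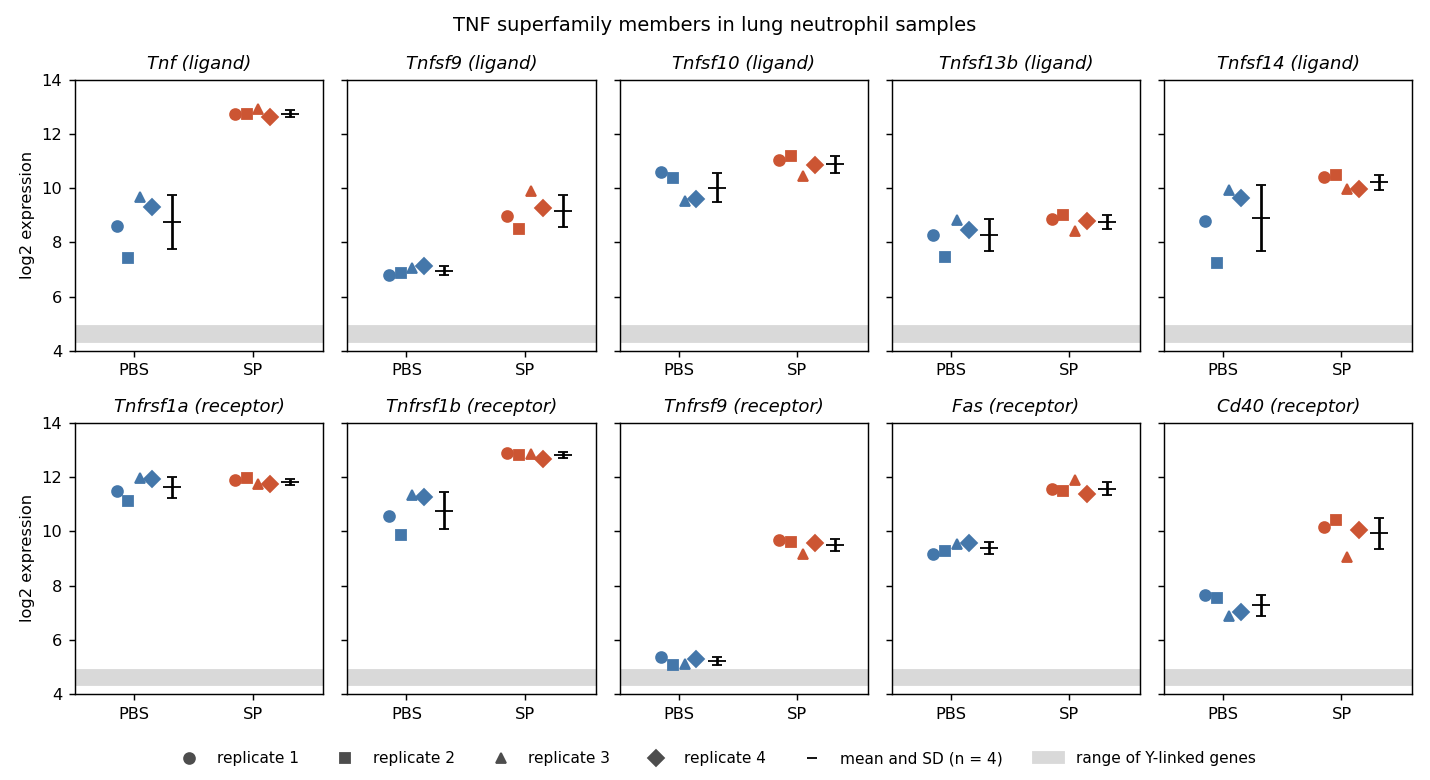
Log2 expression (vertical axis) of the 10 members on each of the 4 PBS arrays (blue) and 4 SP arrays (orange), with the symbol giving the replicate number, the black bar the group mean and its SD, and the grey band the range of Y-linked genes. The SP values of Tnf lie between 12.61 and 12.92, all above the PBS values, while those of Tnfrsf1a overlap with PBS.

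Stretches of genome before the start sites of 4 genes are shown because they belong to the ligand at the centre of the family, to its pair of receptors, of which 1 was called, and to Tnfrsf9, the member with the largest difference. Each runs 5′ to 3′ along the gene's strand and covers the 250 bases before a start site of RefSeq (GRCm38.p6), with matches in capitals. Motifs were searched on both strands of windows from 250 bases before to 50 after the start. They were the NF-κB motif, the interferon-stimulated response element (ISRE, GAAA repeated after a gap of 2 bases) and the STAT motif TTCNNNGAA.
Tnf, chr17:35202008-35202257, minus strand: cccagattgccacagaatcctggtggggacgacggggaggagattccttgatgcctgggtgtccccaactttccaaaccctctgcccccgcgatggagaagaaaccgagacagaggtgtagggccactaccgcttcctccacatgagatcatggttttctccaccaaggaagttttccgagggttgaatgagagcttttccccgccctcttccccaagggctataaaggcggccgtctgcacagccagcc
Tnfrsf1a, chr6:125349473-125349722, plus strand: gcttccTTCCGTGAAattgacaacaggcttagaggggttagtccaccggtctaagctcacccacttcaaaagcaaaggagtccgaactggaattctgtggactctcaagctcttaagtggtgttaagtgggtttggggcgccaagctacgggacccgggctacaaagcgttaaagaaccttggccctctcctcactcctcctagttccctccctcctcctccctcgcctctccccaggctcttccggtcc
Tnfrsf1b, chr4:145246871-145247120, minus strand: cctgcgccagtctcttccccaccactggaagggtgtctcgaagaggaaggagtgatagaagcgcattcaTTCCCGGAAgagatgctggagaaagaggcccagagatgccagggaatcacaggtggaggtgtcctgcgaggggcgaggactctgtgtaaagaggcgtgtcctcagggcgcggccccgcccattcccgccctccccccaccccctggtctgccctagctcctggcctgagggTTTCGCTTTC
Tnfrsf9, the second of its 2 listed starts, chr4:150927749-150927998, plus strand: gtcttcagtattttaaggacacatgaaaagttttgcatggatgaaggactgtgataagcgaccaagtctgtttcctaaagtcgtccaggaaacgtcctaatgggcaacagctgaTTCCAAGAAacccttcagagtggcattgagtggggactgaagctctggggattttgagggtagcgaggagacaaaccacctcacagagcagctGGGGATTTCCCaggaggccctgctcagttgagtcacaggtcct

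In the window shown, Tnfrsf9 held the NF-κB motif in overlapping matches from position -43 to -33 and a STAT motif from -136 to -128. Positions are counted from the start site, with -1 as the last base before it. The window of the first listed start of Tnfrsf9 held none of the 3 motifs. Tnfrsf1b held an ISRE on the opposite strand in the last 10 bases before its start and a STAT motif from -181 to -173. Tnfrsf1a held a STAT motif from -244 to -236 and neither other motif. In the window of Tnf none of the 3 was found, which says only that these letters are not in this window. Among the 8 members with a window, 1 held the NF-κB motif, 2 the ISRE (Tnfsf13b and Tnfrsf1b) and 4 the STAT motif (Tnfrsf1a, Tnfrsf1b, Tnfrsf9 and Fas). Of all 27025 genes with a window, 5.14% held the NF-κB motif in at least 1 window, 3.99% the ISRE and 9.55% the STAT motif, and of all 32851 windows 4.51%, 3.44% and 8.3% did. Tnfsf9 and Cd40 had no entry. A match is a description of letters and not a measured binding site.

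Among the ligands, Tnf had the largest difference. TNF is a main cytokine of early inflammation, made by macrophages, neutrophils and lymphocytes. Its PBS values were 8.59, 7.41, 9.67 and 9.30, and its SP values 12.73, 12.72, 12.92 and 12.61. The lowest SP array lay 2.94 log2 units above the highest PBS array, and the PBS arrays were far more spread (8.74 ± 1.0, SD, n = 4) than the SP arrays (12.75 ± 0.13, SD, n = 4). Tnf was 16.0-fold higher in SP (4.00 log2, 95% interval 3.02 to 4.99, adjusted p = 0.000183), which ranked 75th from the top among 24625 rows. Without single arrays the difference lay between 3.56, without PBS replicate 2, and 4.31.

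Tnfsf9 (4-1BB ligand), which binds the costimulatory receptor Tnfrsf9, measured 6.81, 6.85, 7.04 and 7.13 in PBS and 8.96, 8.48, 9.90 and 9.26 in SP. All SP arrays lay above all PBS arrays, and here the SP arrays were the more spread, with replicate 3 highest. The 4.57-fold difference (2.19 log2, 95% interval 1.58 to 2.81) passed the test with an adjusted p of 0.000352.

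Tnfsf10 (TRAIL), a ligand of death receptors, measured 10.58, 10.38, 9.54 and 9.59 in PBS and 11.05, 11.17, 10.44 and 10.85 in SP. The groups overlapped, since SP replicate 3 lay below PBS replicate 1. The difference was 1.82-fold (0.86 log2, 95% interval 0.24 to 1.48, adjusted p = 0.0328). This call was lost when any 1 of PBS replicates 3 and 4 and SP replicates 1, 2 and 4 was left out, with adjusted p between 0.0557 and 0.0824. The difference stayed between 0.70 and 1.05 over all 8 arrays left out in turn. It passed at 2-fold without SP replicate 3 (1.01, adjusted p = 0.0223) and without PBS replicate 1 (1.05, adjusted p = 0.0178).

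Tnfsf13b (BAFF), a survival factor of B cells, measured 8.27, 7.44, 8.84 and 8.47 in PBS and 8.86, 9.0, 8.42 and 8.78 in SP. The groups overlapped and the difference of 0.51 log2 (95% interval -0.13 to 1.15) did not pass the test (adjusted p = 0.161). With each array centred on its median it was 0.79 and passed (adjusted p = 0.0304).

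Tnfsf14 (LIGHT), a ligand of Tnfrsf14 and of the lymphotoxin β receptor Ltbr, measured 8.77, 7.24, 9.94 and 9.65 in PBS and 10.41, 10.47, 9.98 and 9.97 in SP. The groups did not overlap, but by only 0.03 log2 units, and PBS replicate 2 lay 1.66 below the mean of its group. The difference of 1.31 log2 (2.48-fold, 95% interval 0.09 to 2.52) did not pass the adjusted threshold (adjusted p = 0.0743). It was 0.76 without PBS replicate 2 (adjusted p = 0.0724) and 1.65 without PBS replicate 3, where it passed (adjusted p = 0.0371).

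Of the 2 receptors that bind TNF, Tnfrsf1b was called and Tnfrsf1a was not. Tnfrsf1a (TNFR1), which carries a death domain and is made by most cells, measured 11.48, 11.13, 11.95 and 11.92 in PBS and 11.88, 11.96, 11.74 and 11.75 in SP. These groups overlapped, and the difference of 0.21 log2 (95% interval -0.20 to 0.63) did not pass the test (adjusted p = 0.342). Its sign turned under a further quantile normalization, to -0.03 (adjusted p = 0.902).

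Tnfrsf1b (TNFR2), which lacks a death domain, binds TRAF2 and is made mainly by blood and endothelial cells, measured 10.55, 9.88, 11.35 and 11.25 in PBS and 12.89, 12.80, 12.87 and 12.67 in SP. The SP arrays lay close together (12.81 ± 0.10, SD, n = 4) and above every PBS array. Tnfrsf1b was 4.15-fold higher (2.05 log2, 95% interval 1.37 to 2.74, adjusted p = 0.000909). Tested against a change of 1 log2 unit in place of 0, it missed the threshold (adjusted p = 0.0568).

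Tnfrsf9 (4-1BB), best known as a costimulatory receptor of activated T cells, measured 5.37, 5.07, 5.10 and 5.29 in PBS and 9.67, 9.60, 9.16 and 9.56 in SP. Its difference was the largest of the members, at 4.29 log2 (95% interval 4.00 to 4.59, adjusted p = 6.09e-07), and ranked 51st of all rows. The 19.6-fold ratio is not exact, because the PBS values lay just above the Y-linked range. Of 7 T cell markers, 1 was called higher, against 21.5% of all rows, and the median difference of the list was 0.41. The part of T cells in the difference of Tnfrsf9 was not tested.

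Fas, the death receptor for Fas ligand, measured 9.17, 9.26, 9.55 and 9.58 in PBS and 11.56, 11.49, 11.90 and 11.38 in SP. Both groups were tight and lay clear of each other, with a 4.57-fold difference (2.19 log2, 95% interval 1.87 to 2.52, adjusted p = 1.65e-05).

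Cd40, a receptor of B cells, dendritic cells and macrophages for the CD40 ligand of T cells, measured 7.66, 7.54, 6.87 and 7.01 in PBS and 10.17, 10.40, 9.07 and 10.05 in SP. All SP arrays lay above all PBS arrays, with SP replicate 3 lowest of its group. Cd40 was 6.27-fold higher (2.65 log2, 95% interval 1.95 to 3.35, adjusted p = 0.000258). The mean of the B cell markers was lower in SP, between 7.53 and 8.42 on PBS arrays and between 6.05 and 7.05 on SP arrays. The part of B cells in the difference of Cd40 was not tested.

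Members that share a direction between groups did not share a pattern within them. In PBS, replicate 2 was lowest and replicate 3 highest for Tnf, Tnfsf13b, Tnfsf14, Tnfrsf1a and Tnfrsf1b. Tnfsf10 and Cd40 ran the other way, with PBS replicate 1 highest and replicate 3 lowest. The mean of the endothelial markers was 11.06, 11.44, 10.56 and 10.44 on the PBS arrays in order of number. Replicates 1 and 2 were thus high for these markers, as for Tnfsf10 and Cd40. The same held for the mean of the dendritic cell markers (5.78, 5.64, 5.44 and 5.36) and for those of the epithelial and fibroblast markers. On SP arrays, replicate 3 was lowest for 5 members (Tnfsf10, Tnfsf13b, Tnfrsf1a, Tnfrsf9 and Cd40) and highest for 3 (Tnf, Tnfsf9 and Fas). On the same array the mean of the neutrophil markers was the highest of its group, 0.71 above the group mean. The means of the fibroblast (-1.0 from the group mean), monocyte and macrophage (-0.91) and endothelial markers (-0.62) were lowest there. So were those of the B cell (-0.51), epithelial (-0.40) and alveolar macrophage markers (-0.28). Those of the dendritic cell, T cell, NK cell and eosinophil markers were below their group means there, but lowest on SP replicate 4. The mean of the B cell markers was 6.88, 7.05, 6.05 and 6.26 on the SP arrays, the order that Tnfsf10, Tnfsf13b, Tnfrsf1a and Cd40 had. The means over the other ligands and over the other receptors of the family, counted below, had this SP order too. On the PBS arrays the B cell mean was 8.42, 7.68, 7.53 and 7.75. It was thus lowest on PBS replicate 3, where Tnfsf13b and Tnfrsf1a were highest. The part of any of these cell types in the spread of the members was not tested.

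**Figure D2:**
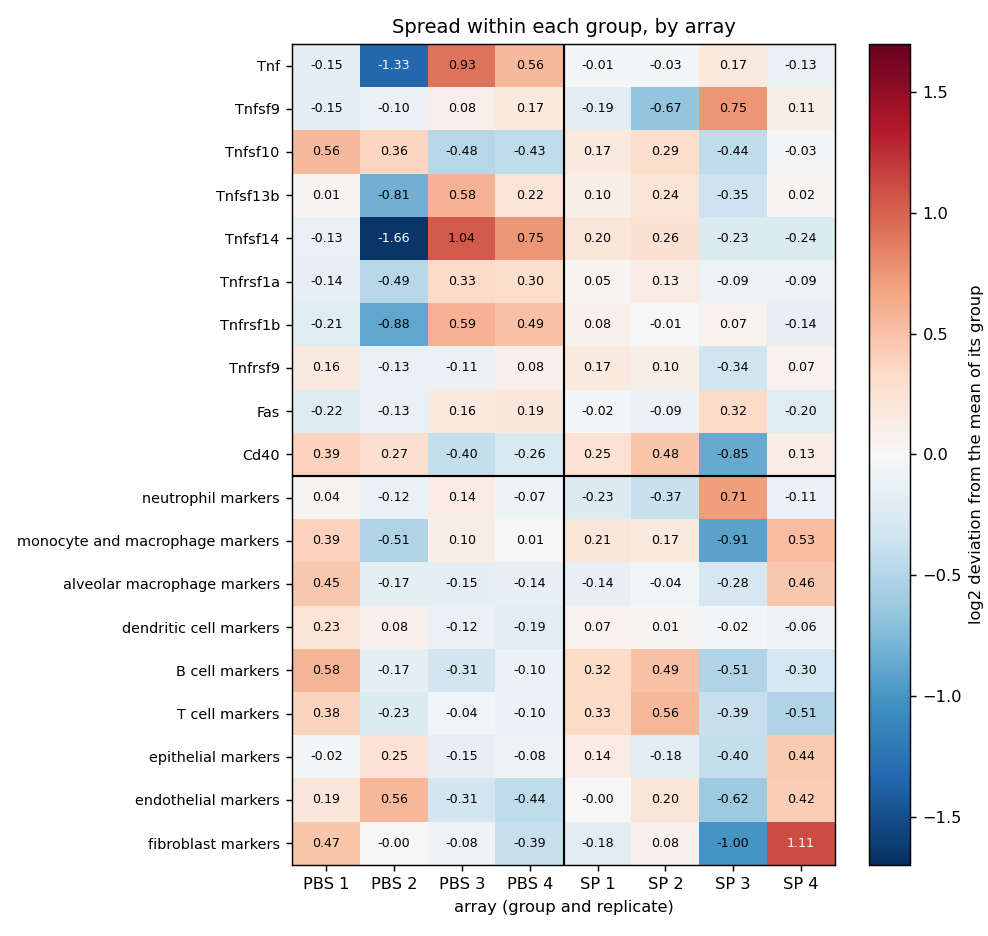
Deviation of each array from the mean of its own group (colour and number, log2 units) for the 10 members above the line and for the means of 9 marker lists below it, with arrays in columns. PBS replicate 2 is 1.33 below its group for Tnf and 1.66 below for Tnfsf14, while Cd40 and Tnfsf10 are above their group mean on it.

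Changes were next set side by side within arrays, as the log2 ratio of a gene to its partner in binding, or to the alternative receptor. The pairs were set with the values known, so the changes are given as a description, with no test. Ratios between genes have no meaning as levels on this array, and only their change from PBS to SP is given. Pairs with Fasl and Cd40lg are left out, because these ligands lay at or close to the Y-linked range in PBS.

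The ratio of Tnfrsf1b to Tnfrsf1a was higher by 1.84 log2 in SP (SD 0.29 in PBS and 0.13 in SP, n = 4 each). That of Tnf to Tnfrsf1b was higher by 1.95 (SD 0.33 and 0.08). That of Tnfrsf9 to Tnfsf9 was higher by 2.10, with a wide spread in SP (SD 0.22 and 0.80) and with Tnfrsf9 just above the Y-linked range in PBS. In these pairs every SP array lay above every PBS array. In the other 3 pairs the groups overlapped. Tnfsf10 to its death receptor Tnfrsf10b differed by 1.41 (SD 0.83 and 0.62), and Tnfsf13b to Tnfrsf13b (TACI), a BAFF receptor of B cells, by -0.87 (SD 0.47 and 0.38). Tnfsf14 to Tnfrsf14 differed by -0.33 (SD 0.89 and 0.15), and by -0.75 without PBS replicate 2.

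**Figure D3:**
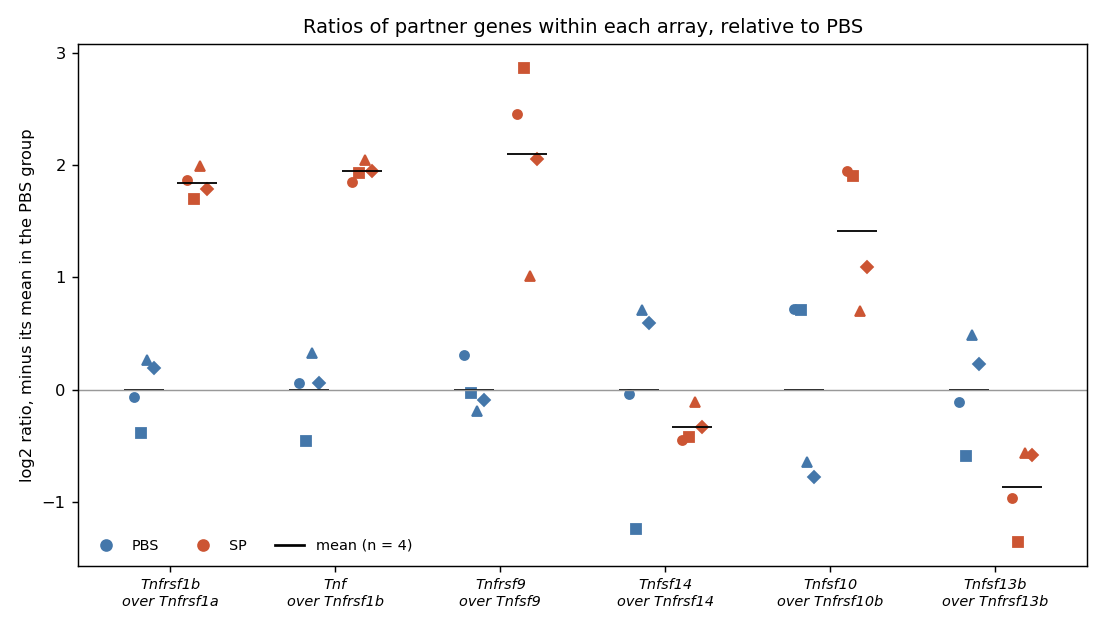
Log2 ratio of the first to the second gene of 6 pairs on each array, minus the mean of that ratio over the 4 PBS arrays (vertical axis), with PBS in blue, SP in orange, symbols for replicates 1 to 4 as in the plot of members by array, and bars for group means. The first 3 pairs lie clear of PBS, and the last 3 overlap with it.

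Of the other binding partners of the members, Fasl, the ligand of Fas, was higher by 0.90 log2 (adjusted p = 0.00118) from values of 4.92 to 5.23 in PBS, close to the Y-linked range. Cd40lg lay between 4.68 and 4.98 on all 8 arrays, with a difference of 0.11 (adjusted p = 0.281). For LIGHT, Tnfrsf14 was 3.12-fold higher (1.64 log2, adjusted p = 0.000665) and Ltbr 1.42-fold higher (0.50 log2, adjusted p = 0.0236, and 0.0538 without PBS replicate 2).

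Of the receptors of TRAIL, Tnfrsf22 and Tnfrsf23 were called higher. Tnfrsf10b, the mouse death receptor, differed by -0.55 (adjusted p = 0.0566, with 0.0381 without PBS replicate 2 and 0.0446 without SP replicate 3). Tnfrsf22 and Tnfrsf23, decoys that bind TRAIL without a death signal, were 2.92-fold (1.55 log2, adjusted p = 0.000582) and 9.16-fold higher (3.20 log2, adjusted p = 0.000212). Tnfrsf11b (osteoprotegerin), a soluble decoy, differed by 0.19 (adjusted p = 0.127). Of the receptors of BAFF, Tnfrsf13b was 2.60-fold higher (1.38 log2, adjusted p = 0.00387), while Tnfrsf13c (BAFF receptor) differed by -0.44 (adjusted p = 0.0977) and Tnfrsf17 (BCMA) lay between 4.20 and 4.45 on all arrays. Of the lymphotoxins, which bind TNF receptors or Ltbr, Lta was 3.15-fold higher (1.66 log2, adjusted p = 0.00043) and Ltb differed by 0.94 (adjusted p = 0.0549), and by 1.22 without SP replicate 3, where it passed (adjusted p = 0.0127).

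The rest of the family was counted to place the members, beside 21.5% of all rows called higher, 6.37% higher at 2-fold and 11.3% lower at 2-fold. Of 11 other ligands measured, 4 were called higher (Lta, Fasl, Tnfsf8 and Tnfsf15) and none lower, 1 of them at 2-fold (Lta), and the median difference was 0.19. Of them, 6 stayed below 5.5 on every array (Tnfsf4, Cd40lg, Cd70, Tnfsf11, Tnfsf18 and Eda), so a change in them could hardly be seen. The 2-fold count of the other ligands was 2 without PBS replicate 3, SP replicate 3 or SP replicate 4. Of 23 other receptors, 8 were called higher and 2 lower, 7 at 2-fold and all of these higher, with a median difference of 0.13. Of them, 5 stayed below 5.5 on every array (Cd27, Tnfrsf17, Tnfrsf25, Ngfr and Edar). The largest was Tnfrsf26, with 7.26, 5.93, 7.34 and 7.17 in PBS and 12.17, 12.25, 11.77 and 11.73 in SP, 33.3-fold higher (5.06 log2, adjusted p = 1.35e-05), or 26.4-fold without PBS replicate 2. Tnfrsf8 (CD30) was 5.77-fold higher (2.53 log2, adjusted p = 1.22e-05). Tnfrsf21 (death receptor 6) was lower by 0.92, with 10.44 to 10.54 in PBS and 9.17 to 9.79 in SP (adjusted p = 0.000867), as was Tnfrsf19, with a difference of -0.99 (adjusted p = 0.00274). Over the 44 ligands and receptors measured, members included, 19 were called higher and 2 lower, and 14 were higher and 0 lower at 2-fold.

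**Figure D4:**
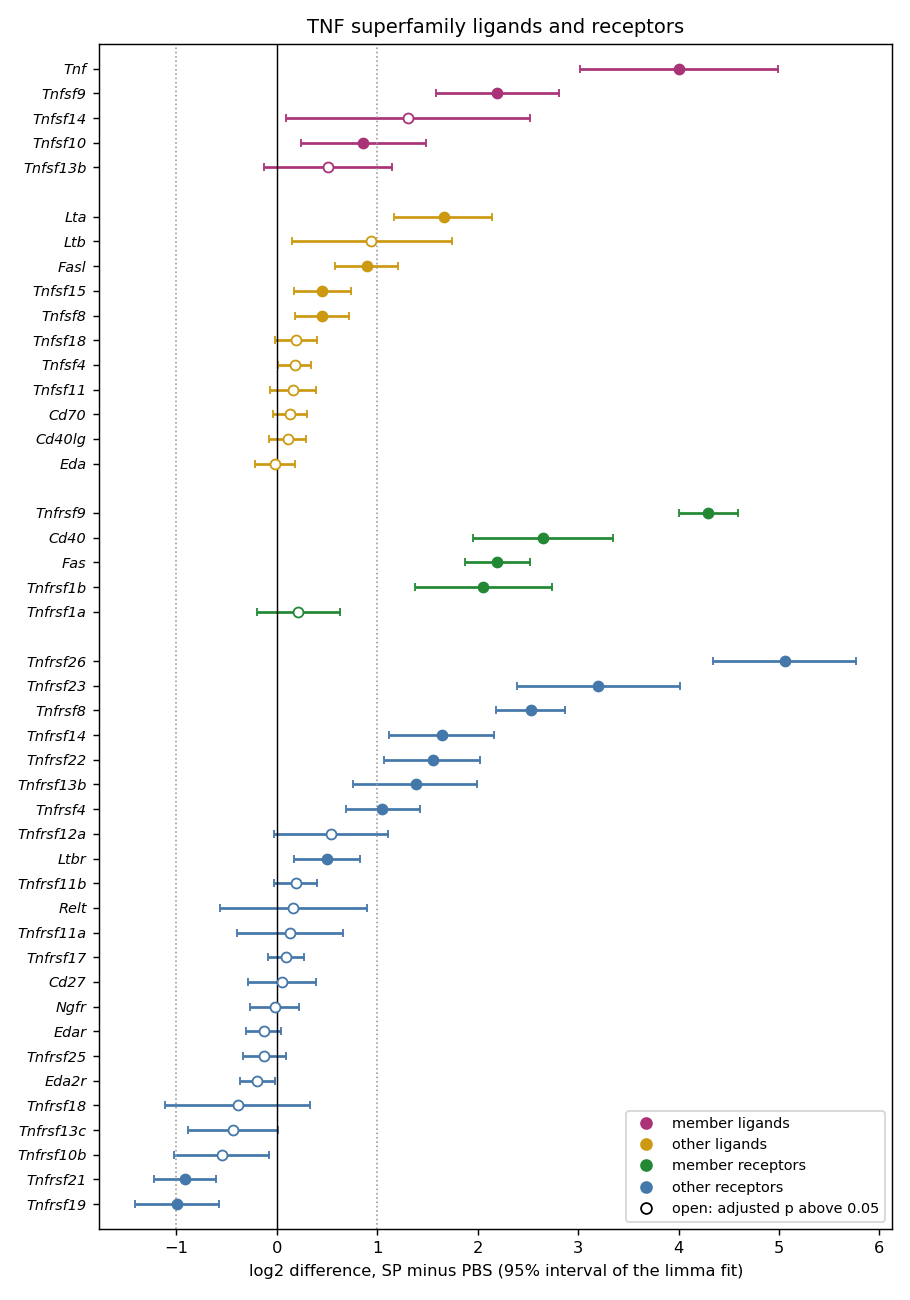
Log2 difference between SP and PBS (horizontal axis) with its 95% interval for the 10 members and the 34 other ligands and receptors measured, in 4 groups by colour, filled where the adjusted p was at most 0.05 and open otherwise, with dotted lines at a 2-fold change. Tnfrsf26, Tnfrsf9 and Tnf lie farthest to the right, and no gene called at 2-fold lies on the left.

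Several of these genes sit side by side in the mouse genome, and neighbours did not always move alike. On chromosome 17, Tnf (4.00) lies between Ltb (0.94, not called) and Lta (1.66). On the same chromosome, Tnfsf9 (2.19), Cd70 (0.13, not called) and Tnfsf14 (1.31, not called) follow each other. On chromosome 4, Tnfrsf1b (2.05) is next to Tnfrsf8 (2.53), and on chromosome 7, Tnfrsf26 (5.06), Tnfrsf22 (1.55) and Tnfrsf23 (3.20) are adjacent. On chromosome 6, Tnfrsf1a (0.21, not called) is near Ltbr (0.50), with 1 protein-coding gene between them.

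Transcripts of proteins that act inside the cell at these receptors were counted in the same way. Of 22 measured adaptors and regulators, 18 were called higher, 13 of them at 2-fold, and 2 lower, with a median difference of 1.16. The count at 2-fold was 10 without PBS replicate 2, where Ripk1 (0.95), Birc3 (0.98) and Cyld (0.91) fell below 1 log2 unit. It was 12 without SP replicate 3 and 10 without both arrays. Of all rows, 21.5% were called higher and 6.37% higher at 2-fold, and their median difference was 0.10. Tnip1, a partner of A20 that restrains NF-κB, was 12.1-fold higher (3.60 log2, adjusted p = 4.12e-06). Traf1, an adaptor of Tnfrsf1b and Tnfrsf9, was 6.32-fold higher (2.66 log2, adjusted p = 1.34e-05). Tnfaip3 (A20), which removes signalling ubiquitin chains, measured 10.38, 8.46, 11.22 and 11.12 in PBS and 12.88, 12.84, 13.17 and 12.85 in SP, a difference of 2.64 (adjusted p = 0.00543) with PBS replicate 2 again far below its group. Without that array the difference was 2.03 (adjusted p = 0.000296), so that the ratio fell from 6.24-fold to 4.08-fold. Of the death pathway, Casp8 was 2.96-fold higher (1.56 log2, adjusted p = 8.32e-06) and Cflar, the inhibitor of caspase-8 at the receptor, 5.26-fold higher (2.39 log2, adjusted p = 6.76e-06), while Fadd, the adaptor that joins Fas to caspase-8, was lower by 0.91 (adjusted p = 0.00551). Traf5 was lower as well, with a difference of -0.87 (adjusted p = 0.00966).

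Of 9 genes for the release of ligands and receptors from the membrane, 4 were called higher, all at 2-fold (6.37% of all rows), and 3 lower, 2 of them at 2-fold (11.3% of all rows), and the median difference was 0.01. Adam17, the protease that sheds TNF and its receptors, was 3.06-fold higher (1.61 log2, adjusted p = 2.52e-05), as were Furin, which matures it (3.13-fold, adjusted p = 0.00032), and Rhbdf2 (iRhom2), which carries it to the cell surface in immune cells (2.75-fold, adjusted p = 0.000493). Sppl2a, which cuts the membrane stub of TNF, was 2.64-fold higher (adjusted p = 0.000169). Rhbdf1 (iRhom1), the relative of Rhbdf2 in other tissues, was lower by 1.41 (adjusted p = 0.00778) and Sppl2b by 1.12 (adjusted p = 0.00334), and epithelial and endothelial markers were lower on the same arrays. Frmd8, which binds the iRhoms, was lower by 0.56 (adjusted p = 0.0478), a call lost without SP replicate 3 (adjusted p = 0.0951), with centring (0.237) and with quantile normalization (0.166). Adam10 differed by 0.01 and Timp3, an inhibitor of Adam17, by -0.02. Without PBS replicate 2 or SP replicate 3, 1 gene was lower at 2-fold in place of 2.

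**Figure D5:**
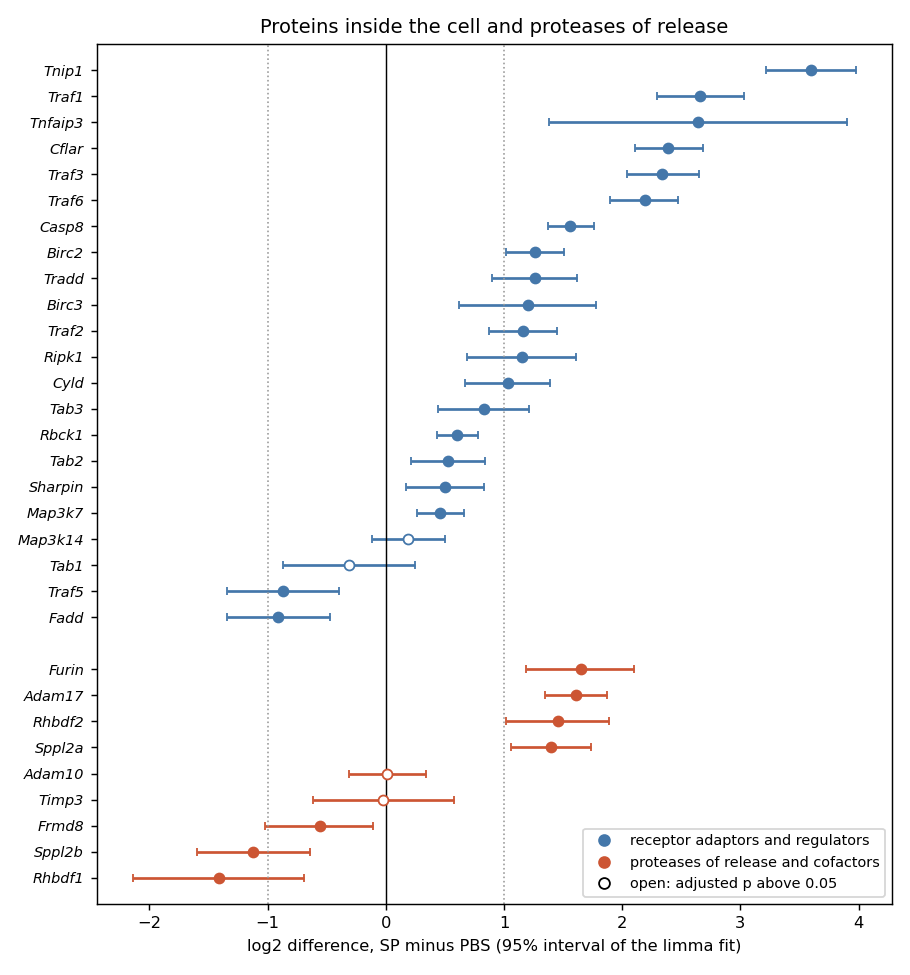
Log2 difference between SP and PBS (horizontal axis) with its 95% interval for 22 adaptors and regulators (blue) and 9 genes of release (orange), filled where the adjusted p was at most 0.05 and open otherwise, with dotted lines at a 2-fold change. Tnip1 lies farthest to the right at 3.60 and Rhbdf1 farthest to the left at -1.41.

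Rows with a symbol, members aside, were ranked by their distance to Tnf over the 8 arrays, with each row taken relative to its own PBS mean. This distance depends on the size of the difference between groups as well as on the order of arrays within them. The root mean square distance to Tnf was 0.232 log2 for Sh2b2, an adaptor of tyrosine kinases, 0.257 for the interferon-induced gene Ifit1, 0.269 for the transcription factor Batf, 0.279 for Gpr84, a receptor of medium-chain fatty acids, and 0.334 for Nos2, the inducible nitric oxide synthase. Sh2b2 measured 6.79, 5.95, 7.72 and 7.46 in PBS and 11.31, 11.28, 11.02 and 11.09 in SP, with the order of the PBS arrays that Tnf had. All 5 were lowest on PBS replicate 2, as Tnf was, which the choice by distance favours. Among the members the nearest to Tnf was Tnfrsf9, at 0.664, with a difference of similar size (4.29) but another order of PBS arrays. The farthest was Tnfrsf1a, at 2.71, with a small difference (0.21) but the order of PBS arrays that Tnf had.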

How the data were processed

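Gene expression was measured in 4 PBS and 4 SP samples of lung neutrophils, grouped and numbered by their titles. The authors made the values by RMA, which corrects background and sequence effects, quantile-normalizes the probes and summarises them per gene by median polish, and the deposited values are log2 intensities with 1 row per gene or transcript. They are relative within an array, so a change in total RNA per cell cannot be seen, and very bright or dim genes may have compressed differences. Array medians lay between 6.06 and 6.20 in PBS and between 5.785 and 5.914 in SP, so centring moves every difference by 0.28. The number of arrays limits the precision.

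Symbols came from a table of RefSeq genes (GRCm38.p6), which matched 19911 of 24625 rows (80.9%). Where several rows shared a symbol, that with the highest mean was used. Tnfsf12, Tnfsf13 and Rnf31 had no matched row. Groups were compared with limma (version 3.58.1, R 4.3.3, lmFit and eBayes) by two-sided tests, and p-values were adjusted over all rows by the Benjamini-Hochberg method. The study's thresholds were kept. The test was checked on simulated data. The members and lists were chosen with earlier results of these data known, and no list was tested as a set. Named genes were the members, their binding partners, and of each list the 3 largest 2-fold differences without overlap and the 2 highest means; Tnfrsf19, Fadd, Traf5, Cflar, Rhbdf1, Sppl2b, Frmd8, Adam10, Timp3, Tnfsf8 and Tnfsf15 were added after their values were seen. Alternatives were array weights, the methods' t-test (one-way ANOVA of 2 groups), the replicate block, limma treat, a prior that was robust and followed the intensity, centring, quantile normalization, leaving out dim rows, 1 row per symbol and leaving out each array. Leaving out PBS replicate 2 and SP replicate 3 together, and the ratios of genes, were chosen after seeing the data. Figures were drawn with matplotlib 3.10.9.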

Additional observations from a re-analysis of the deposited data

Results flagged for a closer look

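Over 39 named genes (members, partners and the leading genes of the lists, 78 groups of 4 arrays), 2 held an array far from the others by Dixon's ratio, and chance alone flags about 1 group in 20. Tnfrsf26 was 5.93 on PBS replicate 2, against 7.17 to 7.34 on the other PBS arrays. Tnfaip3 was 13.17 on SP replicate 3, against 12.84 to 12.88 on the other SP arrays.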

How the results depend on the processing

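Over 18 alternatives, the number of members called lay between 5 and 9 (7 as reported) and the number called at 2-fold between 5 and 8 (6 as reported). The methods' t-test called 6 members, also at 2-fold. Tnf, Tnfsf9, Tnfrsf9, Fas and Cd40 passed under all 18, Tnfrsf1b under 17 and Tnfsf10 under 10. Tnfsf10 did not pass under the methods' t-test (adjusted p = 0.0684), quantile normalization (adjusted p = 0.0953) and limma treat against 1 log2 unit (adjusted p = 1). Tnfsf14 passed under a robust prior (adjusted p = 0.0491), centring (adjusted p = 0.0207) and with dim rows left out (adjusted p = 0.0487). The difference of Tnfrsf1a turned to -0.03 under quantile normalization. Causes were not tested.

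At 2-fold, the reported counts were 1 higher for the other ligands, 7 for the other receptors, 13 for the adaptors, and 4 higher and 2 lower for the release genes. Limma treat, which is stricter by construction, gave 0, 3, 6, 1 and 0, and called 1572 of all rows (660 higher, 912 lower). Centring gave 3 ligands higher and 1 release gene lower, and called 18255 of all rows, 2375 higher and 1896 lower at 2-fold against 1568 and 2773 as reported. Quantile normalization gave 3 ligands higher, 1 receptor lower and 1 release gene lower. Array weights gave 2 ligands higher and 1 release gene lower, as did leaving out PBS replicate 2 and SP replicate 3 together. With dim rows left out, 0 ligands were higher, because Lta was among the rows left out. Leaving out single arrays gave 1 to 2 ligands higher, 6 to 7 receptors higher and 0 to 1 lower. It gave 10 to 13 adaptors higher and 0 to 1 lower, and 1 to 2 release genes lower.

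The replicate numbers were not taken as pairs in the main test. Deviations of arrays with the same number correlated at 0.02, 0.03, 0.35 and -0.27, and those with other numbers between -0.36 and 0.28. So few arrays do not settle whether the numbers pair the samples. With the replicate block, 7 members were called, as without it, and 9842 of all rows in place of 10860.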
